A study of Mus musculus with 15 samples.

Results

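Expression was compared between mouse cells differentiated for 6 days in CDL medium and sorted for a Pax3 reporter, and the undifferentiated embryonic stem (ES) cells of the same series. The comparison takes 6 of the 15 arrays of the series, picked out by their labels. They are 3 of the CDL day 6 cells and 3 of ES cells at day 0. These groups were chosen with earlier results of these data known. The differentiated cells came from ES line CK35 (strain 129Sv), which makes GFP from the Pax3 gene, and were collected as Pax3GFP-positive cells. They had 2 days in serum-free N2B27 medium with BMP4 at 10 ng/ml, followed by DMEM-based medium with serum replacement, the GSK3 inhibitor CHIRON99021 (Chir) at 1 µM, 0.5% DMSO and LDN, which blocks BMP receptors, at 0.1 µM. The compound is written LDN193189 in the protocol, and the number differs between treatment labels. The ES cells were of another line, E14 (strain 129P2). They were not sorted, and were kept with serum, LIF and 2i, that is CHIRON99021 with the MEK inhibitor PD0325901, on growth-arrested embryonic fibroblasts until 1 passage without feeders. Both groups thus had CHIRON99021, with a dose given for the CDL cells only, so the doses may differ. Day, line, strain, sort, serum and MEK inhibitor changed together between them, so their parts in any difference cannot be told apart. A further 6 arrays serve as points of reference for named genes: CDL day 4 cells (E14, sorted as Msgn1repV-positive) and RDL day 6 cells (CK35, sorted as Pax3GFP-positive, with Rspo3 at 10 ng/ml in place of CHIRON99021). Each line is a single ES line.

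Paraxial mesoderm is the tissue beside the neural tube that forms the vertebrae, the ribs, the skeletal muscle of the body and the dermis of the back. Its cells enter through the primitive streak and tail bud, pass through the posterior presomitic mesoderm, where Msgn1 and Tbx6 are active, and turn on Pax3 as they approach segmentation into somites. Each somite then divides into a dorsal dermomyotome, which keeps Pax3, and a ventral sclerotome, which takes up Pax1 and Pax9 under hedgehog signals from the notochord and floor plate. Pax3 is active also in the dorsal neural tube and the neural crest, so markers of those tissues are given with the results.

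The arrays gave 1 signal per probe set on a linear scale, with array medians between 29.4 and 31.2 units. Signals near or below that level are called dim. Differences are between group means of log2(signal + 12.6), with the standard error of the fit, and this constant makes them smaller than the fold change of dim genes. Without it the differences of Wnt5a, Foxa2, Foxd3, Lum, Sox17, Tbx6 and Fgf8, all called below, were over 1.5 times larger at 3.31, 1.79, -1.64, 1.62, 1.17, 0.62 and 0.66. Each array correlated with the others of its group at a mean of 0.978 to 0.997, and in CDL day 6 at 0.986 to 0.991. Among 12409 genes tested, 37 ranged over more than 2-fold within the CDL day 6 arrays, and replicate 2 was the farthest array for 26 of them. Over 27 genes that were above 500 in ES cells and below 30 on all RDL arrays, the median signal of the CDL day 6 arrays was 0.860% to 1.38% of the ES level. On CDL day 4 replicate 1 it was 19.5%, so differences from CDL day 4 are also given without that array where it matters. The labels call the arrays biological replicates. In sorted populations, fewer cells of a type and less RNA per cell cannot be told apart.

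The genes behind the sort reporters were looked at first. Pax3 gave 515, 618 and 435 on the CDL day 6 arrays and 63.5, 60.02 and 53.2 on the ES arrays. All 3 sorted arrays lay above all ES arrays, so that the labelled sort and the gene went together, and the log2 difference was 2.89 ± 0.14 (adjusted p = 1.32e-08, limma). Msgn1, the presomitic regulator used for the day 4 sort, gave 44.3, 43.9 and 43.6 in CDL day 6 and 24.6, 35.9 and 27 in ES cells, a small difference of 0.45 ± 0.10 (adjusted p = 0.00336) near the array median. At CDL day 4 Msgn1 stood at 366, 334 and 312, far above both.

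Of all genes tested, 3537 (28.5%) were higher in CDL day 6 and 4228 (34.1%) were lower at an adjusted p under 0.05, with a median difference over all genes of -0.02. Differences of at least 2-fold (1 on the log2 scale) past this threshold numbered 1228 upward and 1435 downward. In 8437 genes (68.0%) the arrays of one group did not overlap those of the other. These shares are the background against which each list and each such separation below should be read. The lists were written from general knowledge. A gene below the array median on the ES arrays could be tested only if it was brighter on other arrays. That filter favours calls as higher for such genes. They include members of the somite, dermomyotome, sclerotome, Hox and retinoic acid lists, whose counts should be read with this limit.

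**Figure D1:**
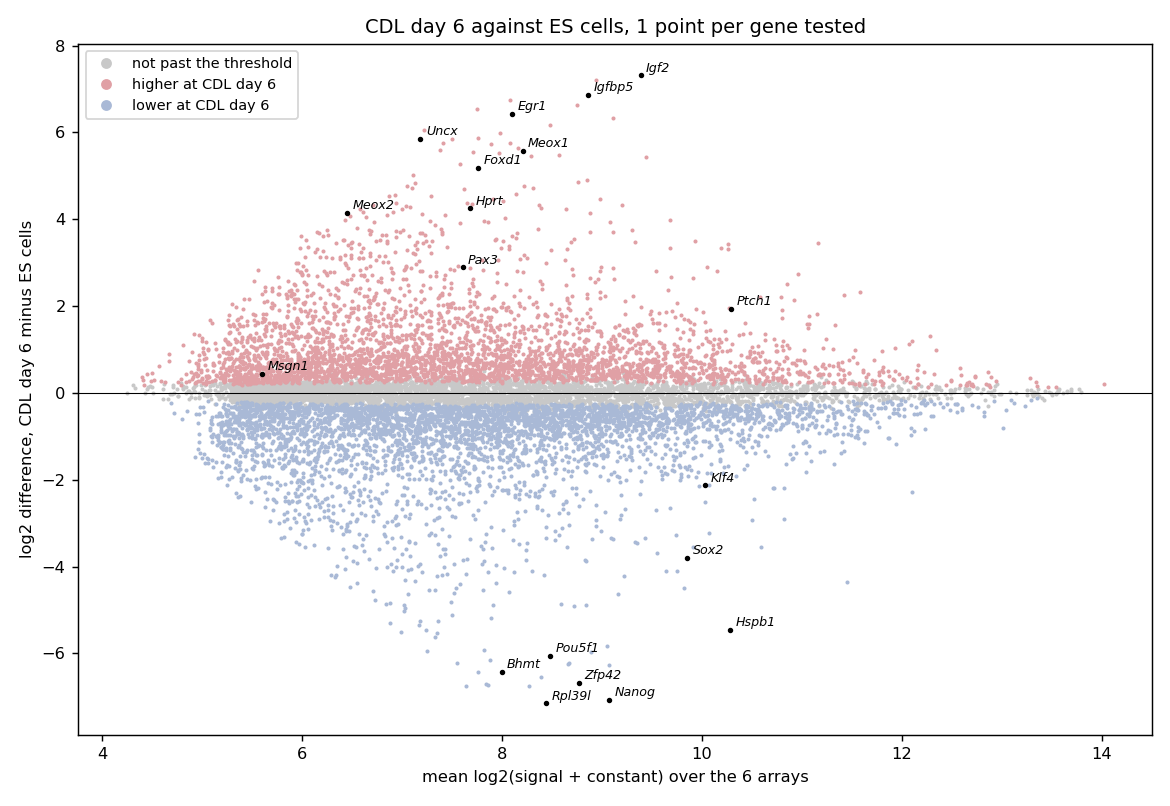
Log2 difference between CDL day 6 and ES cells (vertical axis) against the mean log2(signal + constant) of the gene over the 6 arrays (horizontal axis), 1 point per gene tested. Red genes were higher and blue genes lower at an adjusted p under 0.05, and black points carry gene names. Igf2 lay highest at 7.32 and Rpl39l lowest at -7.15.

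The largest increase was that of Igf2, an imprinted fetal growth factor, which gave 8076, 9586 and 7719 in CDL day 6 against 42.8, 36 and 42.6 in ES cells. Its log2 difference was 7.32 ± 0.11 (adjusted p = 1.55e-11). Igfbp5, a secreted binding protein for insulin-like growth factors, gave 4451, 6749 and 4211 against 24.4, 29 and 39.4, with CDL day 6 replicate 2 the highest array. Selenop, a secreted selenium carrier, was nearly the same on its 3 arrays at 6100.3, 5864 and 6022, against 32.6, 22.4 and 28.9. Arg1, an arginase, followed with a difference of 6.75 ± 0.10, and matrix and adhesion genes came next: Col3a1, a fibrillar collagen, at 6.64 ± 0.12 and Cdh11, a cadherin of mesenchyme, at 6.55 ± 0.11. The remaining 9 of the 15 largest increases were Egr1, Fos, Hoxb5os, the apelin receptor Aplnr, Fndc3c1, the heparin-binding growth factor Ptn, the somite gene Uncx, the imprinted gene Nnat and the forkhead factor Foxc2. Their log2 differences ran from 5.76 to 6.43. Genes named by size were taken only from those whose arrays did not overlap, so their separation was set by that choice. With all probe sets of a gene averaged in place of the brightest, the difference was 4.43 for Igf2, 3.64 for Igfbp5 and 3.43 for Aplnr, each still past the threshold.

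Rpl39l, a ribosomal protein gene expressed in ES cells and testis, had the largest decrease and fell from 4387, 4399.8 and 3655 in ES cells to 16.2, 18.9 and 14.8 in CDL day 6. The log2 difference was -7.15 ± 0.11 (adjusted p = 1.55e-11). Nanog, a homeodomain factor of pluripotency, fell from 6343, 6313 and 5957 to 23.3, 44.6 and 36.5, with a difference of -7.06 ± 0.15. Tfcp2l1, Crxos, Morc1, Fgf4 and Zfp42 followed, each under 50 on all 3 CDL day 6 arrays and above 1800 on all 3 ES arrays. Trap1a, Dppa2, Bhmt, Fam25c, Ooep, Tdgf1, L1td1 and Mageb16 completed the 15, with differences between -6.54 and -6.15. Dppa2 and L1td1 are marks of pluripotent cells, Ooep is an oocyte gene, Tdgf1 is a Nodal co-receptor and Bhmt is an enzyme of methionine synthesis. For Fgf4 the difference was -4.18 with all probe sets averaged.

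Naive pluripotency genes were lower throughout the list. All 15 of 15 members tested were lower, each by at least 2-fold, with a median log2 difference of -5.26 beside -0.02 over all genes. Nr0b1 fell from 1117 to 10.4 and Esrrb from 1100.2 to 11.5 (group means, with Esrrb differing by -3.17 when its probe sets were averaged). The smallest decreases were those of the Krüppel-like factors Klf4 and Klf2. Klf4 kept a signal of 434, 544 and 488 in CDL day 6 against 2056, 2111 and 2354 in ES cells, a difference of -2.13 ± 0.11. Klf2 kept 199, 267 and 213 against 1522, 1309.8 and 1682. A share of 1.47% of all genes was higher and 2.11% lower in CDL day 6 than in RDL day 6. Klf4 and Klf2 were among the higher genes. In RDL day 6 Klf4 gave 91.4, 114 and 161 and Klf2 64.3, 60.4 and 86.6, below all CDL day 6 arrays, and the differences of 1.92 ± 0.20 and 1.53 ± 0.17 passed the threshold (adjusted p = 0.00114 and 0.0015, the latter 0.062 with all 15 arrays in the fit). Their levels did not differ past the threshold from CDL day 4 (0.17 ± 0.27, adjusted p = 0.65, and 0.81 ± 0.57, adjusted p = 0.308), where replicate 1 was the highest array for both. Without that array Klf2 and Klf4 were higher in CDL day 6 than in CDL day 4, by 1.65 and 0.53 (adjusted p = 1.17e-05 and 0.0254).

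Among general pluripotency genes 15 of 16 were lower and 0 higher, with a median of -3.64. Pou5f1, which encodes Oct4, fell from 2702, 2753 and 3269.9 to 23.9, 49.7 and 23.9 (difference -6.06 ± 0.19, adjusted p = 7.16e-10). Sox2, which is also a gene of neural progenitors, fell from 3781, 3700.1 and 2886 to 194, 262 and 254 and thus stayed above the array median. Dppa5a, at 12573 ± 91.6 (SD, n = 3) in ES cells, still gave 638 ± 234 in CDL day 6, and Dnmt3l, a cofactor of de novo DNA methylation, dropped to 17.5. The exception was Lin28a, an RNA-binding protein of early embryos: it gave 449, 186 and 198 in CDL day 6 and 172, 173 and 189 in ES cells, with replicate 1 far above and replicate 2 within the ES range, and the difference of 0.50 ± 0.26 did not pass the threshold (adjusted p = 0.124). Without CDL day 6 replicate 2 it was 0.71 and did (adjusted p = 0.0179). At CDL day 4 Lin28a had been at 633, 1478 and 1379.9. Germ line genes went the same way as the pluripotency genes: 10 of 11 tested were lower and 0 were higher, led by Morc1, Dazl and Tex19.1, with a median of -2.96. Another 5 of the list were too dim to test.

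The Nanog promoter is shown because this gene was among the largest decreases and because the promoter holds side by side the letters read by Sox2 and Oct4. The 300 bases run from 250 before to 50 after the RefSeq gene start, at chr6:122707239-122707538 on the + strand of GRCm38.p6, and capitals mark the match, 75 to 62 bases before the start and read on the other strand.
Nanog: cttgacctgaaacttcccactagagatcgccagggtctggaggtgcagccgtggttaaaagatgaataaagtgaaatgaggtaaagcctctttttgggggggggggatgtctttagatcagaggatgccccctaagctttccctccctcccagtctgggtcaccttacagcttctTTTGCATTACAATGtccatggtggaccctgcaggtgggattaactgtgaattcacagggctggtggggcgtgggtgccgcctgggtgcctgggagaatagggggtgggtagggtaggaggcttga
A Sox core (CATTGT) followed by an octamer core (ATGCAAA) within 3 bases, on either strand, occurred in 2 of 27025 genes with such RefSeq promoters (0.0074%). A gene was counted if any of its promoter windows held the match. Those were Nanog and Acyp1, and Acyp1 was among the higher genes. The octamer core alone was in 5.24% of these genes and the Sox core alone in 14.3%. Neither was more frequent among the lower genes than among all tested genes with a promoter. The octamer core was in 3.96% and 3.97% of them, and the Sox core in 8.82% and 9.01%.

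**Figure D2:**
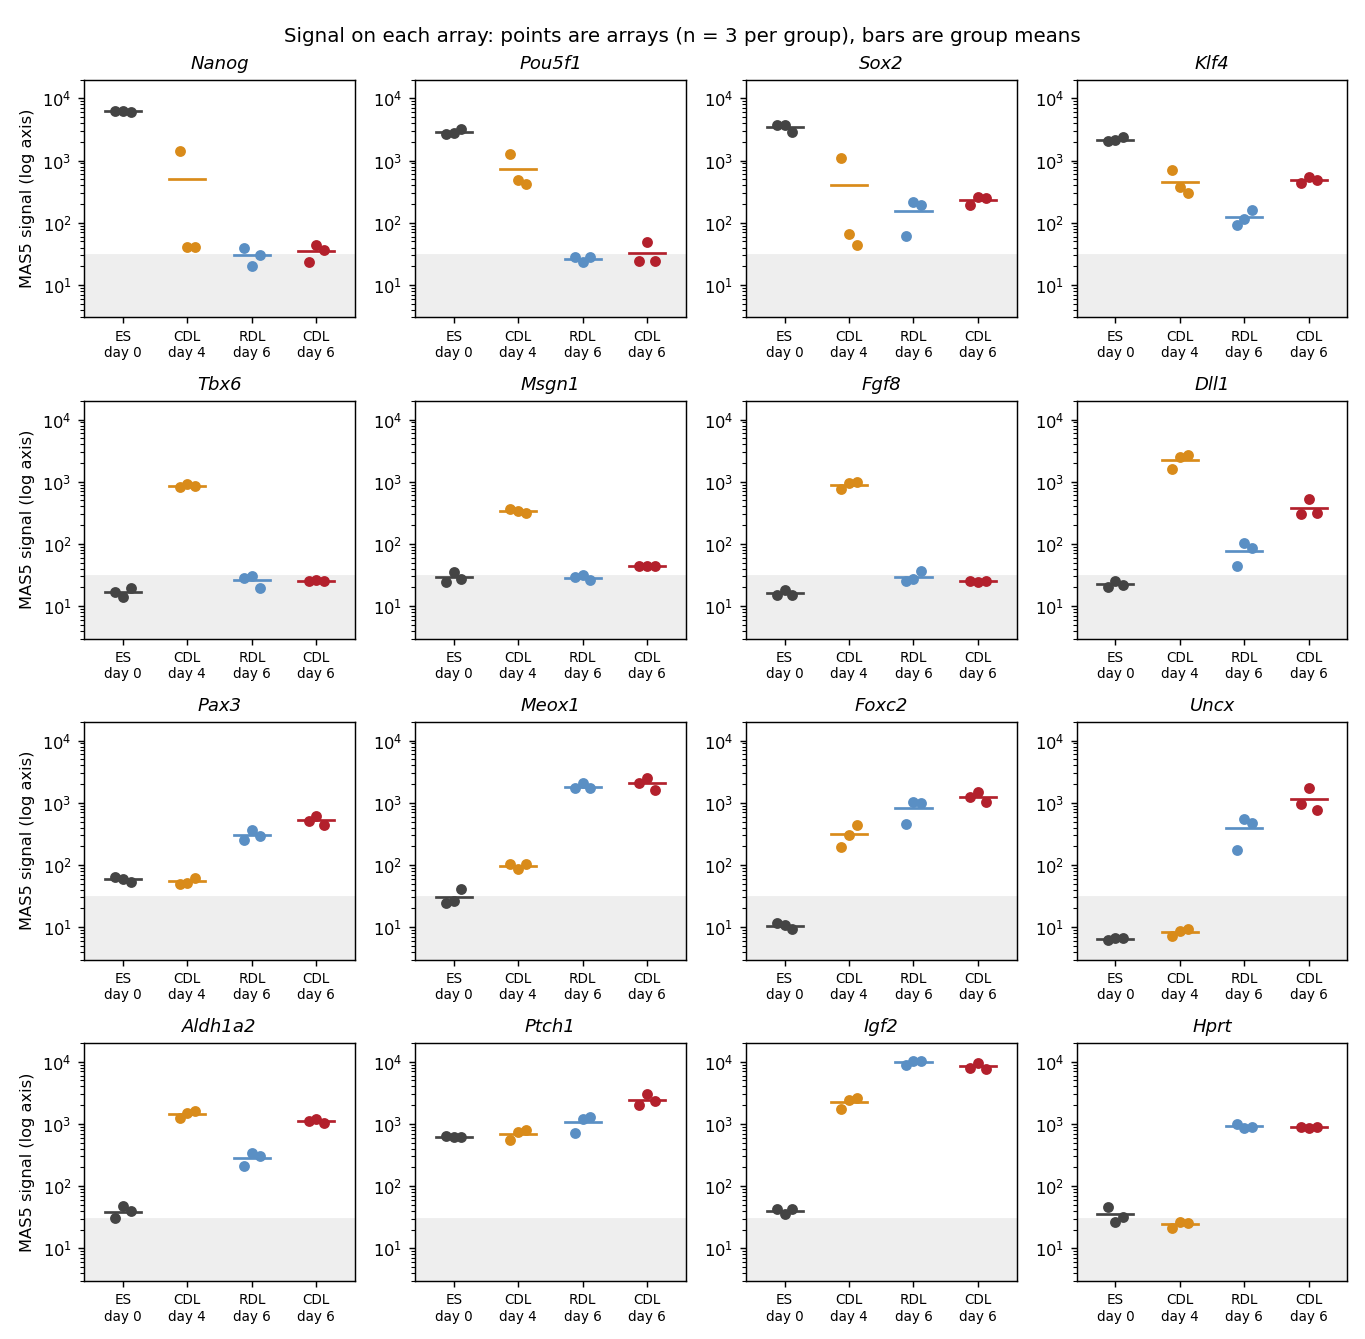
Signal of 16 genes (log axis) on each of the 3 arrays (points) of ES cells, CDL day 4, RDL day 6 and CDL day 6, with group means as bars and a grey band below 30, about the array median. Nanog and Pou5f1 lay in or near the band on the CDL day 6 arrays, Tbx6 and Fgf8 were bright only at CDL day 4 among these groups, and Pax3, Meox1, Foxc2 and Uncx were far above the ES arrays.

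Genes of the primitive streak and tail bud were lower than at CDL day 4, and few of them were above ES cells. Of 13 tested, 2 were higher than in ES cells (Wnt5a and Fgf8) and 5 lower, with a median of -0.03 (without CDL day 6 replicate 3 it was 4 higher), while all 13 were lower than at CDL day 4. The share of all genes lower in CDL day 6 than in CDL day 4 was 19.1%, and 14.6% were higher. Fgf8, the growth factor of the tail bud, gave 25.6, 24.5 and 25.5 in CDL day 6, 14.9, 18.3 and 15 in ES cells and 759.7, 939 and 975 at CDL day 4. Mixl1, a homeobox gene of the streak, likewise went from 1173, 1169.7 and 1129 at day 4 to 23.4, 23 and 20.4 at day 6, slightly below its ES level (difference -0.27 ± 0.09, adjusted p = 0.0216, and 0.0898 or 0.0791 without ES replicate 1 or CDL day 6 replicate 3). Cdx1 was lower in CDL day 6 than in ES cells (25.5 against 123), as was Nkx1-2 (31.1 against 194).

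The posterior presomitic genes split. Of 14 tested, 10 were higher than in ES cells and 1 lower (2 without CDL day 6 replicate 2), with a median of 1.08, but 10 were lower than at CDL day 4. Tbx6, a T-box regulator of presomitic mesoderm, gave 25.5, 25.9 and 25.2 in CDL day 6 and 16.5, 14.1 and 19.5 in ES cells, both dim, against 824, 931 and 846 at CDL day 4. Dll1, the Notch ligand of presomitic mesoderm and of the caudal part of somites, was far above ES cells at 299.5, 529 and 315 against 20.5, 25.2 and 21.7 (difference 3.44 ± 0.19, adjusted p = 4.12e-08). It was nevertheless below CDL day 4 (1629, 2467 and 2674). Rspo3, a Wnt enhancer made by posterior mesoderm, was at 163, 111 and 167 against 2003, 2316 and 2304 at day 4 and 13.9, 13.2 and 15.5 in ES cells. Its difference from ES cells was 2.56 ± 0.14, or 1.36 with its probe sets averaged. Tcf15, a factor of somite epithelium, ran the other way: it gave 1001, 1408 and 834 in CDL day 6, above both ES cells (139, 144 and 172) and CDL day 4 (101, 75.8 and 97.6). The clock genes Hes7 and Lfng differed from ES cells by 0.10 ± 0.13 and 0.11 ± 0.13, which did not pass the threshold (adjusted p = 0.517 and 0.488).

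**Figure D3:**
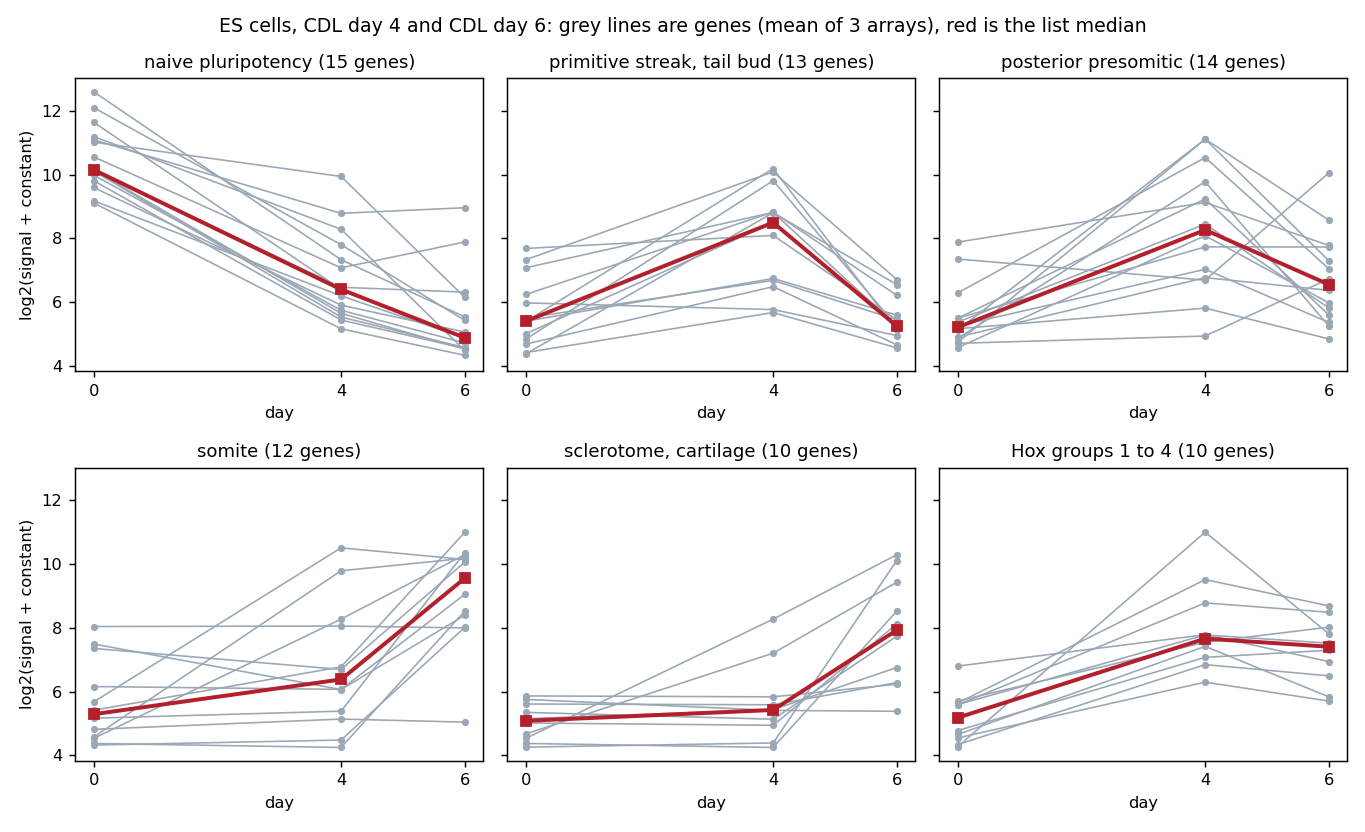
Mean log2(signal + constant) of 3 arrays for each tested member of 6 gene lists (grey lines) and the list median (red squares) in ES cells (day 0), CDL day 4 and CDL day 6 cells. The lines join different samples, and the day 6 cells are of another line than those of days 0 and 4. The medians of streak and posterior presomitic genes peak at day 4, while those of somite and sclerotome genes are highest at day 6.

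Somite genes made up the clearest group of increases. Of 12 tested, 11 were higher than in ES cells, 9 of them by at least 2-fold, and 0 were lower, with a median of 3.92. Another 2 of the list were too dim to test. Members dim in ES cells, such as Foxc1 and Foxc2, could be tested only because they were brighter in other groups. Foxc2, a forkhead factor needed for somite formation, gave 1246, 1496 and 1025 in CDL day 6 against 11.5, 10.8 and 9.25 in ES cells. Foxc1, which acts with it, gave 897, 1592 and 1059 against 10.8, 11.3 and 11.4. Meox1, a homeobox gene of the whole somite, rose from 24.6, 26.4 and 40.8 to 2057, 2538 and 1595, with a difference of 5.58 ± 0.18 (adjusted p = 8.78e-10). No array of one group came near the other in any of these 3 genes. Foxd1 differed by 5.19 ± 0.15, Meox2 by 4.15 ± 0.19 and Aldh1a2, the enzyme that makes retinoic acid in somites, by 4.47 ± 0.14. Six4, the member not called, had means of 246 in CDL day 6 and 251 in ES cells (difference -0.04 ± 0.14, adjusted p = 0.8). Its dimmer probe sets went both ways, at 0.30, -0.37 and -0.22 (limma, adjusted p = 0.023, 0.0178 and 0.135).

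The same genes were also compared between CDL day 6 and CDL day 4. These groups differ in line and sort as well as day, so the differences cannot be read as timing alone. Foxc1 was at 642, 1012 and 1018 at CDL day 4, and its level at day 6 did not pass the threshold against it (difference 0.39 ± 0.23, adjusted p = 0.23). Aldh1a2 was higher at CDL day 4 (1245, 1482 and 1629) than at day 6 (1120.02, 1219 and 1022), by a small margin (-0.37 ± 0.12, adjusted p = 0.046, lost without any of 4 of the arrays at an adjusted p of up to 0.167). Meox1, Foxd1, Meox2, Dmrt2 and Pax3 were under 110 on all CDL day 4 arrays. Of the 12 genes, 8 were higher in CDL day 6 than in CDL day 4 and 1 was lower.

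Among genes of segment borders and of the front and back of somites, 7 of 11 tested were higher than in ES cells and 2 lower, with a median of 0.76. The call of Mesp2, the lower gene besides Epha4, was lost without any of 5 of the 6 arrays (-0.26 ± 0.10, adjusted p = 0.0458, at most 0.156 without 1 array). Uncx, a homeobox gene of the caudal part, went from 6.09, 6.8 and 6.65 to 968, 1748 and 769, with CDL day 6 replicate 2 the highest, and differed by 5.85 ± 0.24 (adjusted p = 4.17e-09). Efnb2, an ephrin that also marks the caudal part, rose from 72.9, 61.4 and 63.8 to 847, 1299.8 and 765. Tbx18, which marks the rostral part, gave 171, 174 and 198 against 73, 65.7 and 61.2, a difference of 1.29 ± 0.11. Epha4, a receptor of the rostral part and of the segment border, was lower than in ES cells, at 80.5, 114 and 119.8 against 562, 511 and 464 (difference -2.17 ± 0.15).

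Of dermomyotome genes 8 of 10 tested were higher and 0 lower, with a median of 3.01, and 5 of the list were too dim to test. Pax3 is itself a dermomyotome gene. As the cells were sorted on it, its increase is no separate sign of this tissue or of somites. Gas1, a membrane protein that binds hedgehog ligands, gave 2044, 3521 and 2462 against 158, 103 and 101 in ES cells, the zinc finger gene Zic1 251, 396 and 363 against 9.41, 9.44 and 8.11 and the growth factor receptor Pdgfra 791, 648 and 759 against 42.8, 29.6 and 38.4. With their probe sets averaged, Gas1 differed by 2.68 in place of 4.32 and Pdgfra by 2.41 in place of 3.92. Dmrt2, a factor of the early dermomyotome, gave 251, 307 and 193 against 7.2, 7.52 and 7.46. Pax7, which joins Pax3 in muscle progenitors, was dim on all arrays at 21.8, 30.4 and 21.7 in CDL day 6 and was not tested. The limb muscle gene Lbx1 did not pass the threshold (difference 0.08 ± 0.08, adjusted p = 0.434).

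Muscle differentiation genes did not move as a group: 4 of 9 tested were higher, 2 lower, with a median of 0.16, and 6 were too dim to test. Myf5, the earliest of the myogenic factors, gave 91.1, 55.4 and 77.1 in CDL day 6 and 15.9, 14.1 and 14.8 in ES cells (difference 1.64 ± 0.14, adjusted p = 1.32e-06), and it was above CDL day 4 (17.9, 27.4 and 23.4) and RDL day 6 (32, 35.4 and 32.4) too. The last of these differences, 0.91 ± 0.15 (adjusted p = 0.0121), was lost without RDL or CDL day 6 replicate 3 (adjusted p = 0.0517 and 0.0678). Of the later factors, Myod1 was dim at 19, 19.1 and 21.2 and Myog at 12, 14.8 and 12, and neither was tested. Actc1, the cardiac actin of early muscle, was at 706, 456 and 573 against 21.2, 16.2 and 14, yet it had been at 1665, 1736 and 1656 at CDL day 4. Ttn, the giant protein of the sarcomere, was lower than in ES cells (8.47 against 341).

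In the sclerotome and cartilage list 9 of 10 tested genes were higher and 1 lower, with a median of 2.75, and 3 were too dim to test. Uncx, Foxc2 and Meox2 belong to this list as well as to those above. Pax1, the paired box gene of the sclerotome, rose from 19.3, 20.7 and 19.1 to 197, 363 and 261 (difference 3.11 ± 0.18, adjusted p = 5.92e-08). Twist1, a mesenchymal factor, differed by 4.76 ± 0.12 and Col2a1, the cartilage collagen, by 2.39 ± 0.11. Sox9, which drives cartilage genes, gave 78.1, 104 and 106 against 27.6, 19.1 and 22.5. With probe sets averaged, Pax1 differed by 1.92 and Sox9 by 0.92 in place of 1.60. Pax9 gave 57.7, 82.6 and 50.7 against 49.7, 45 and 42.3, a difference of 0.37 ± 0.14 just past the threshold (adjusted p = 0.0414, lost without any of 4 of the 6 arrays at an adjusted p of up to 0.129), and Nkx3-2 was dim at 15.8, 23 and 16 and not tested. Pax3 and Pax1 were thus both raised in the same sorted populations, in cells that bulk arrays do not separate.

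**Figure D4:**
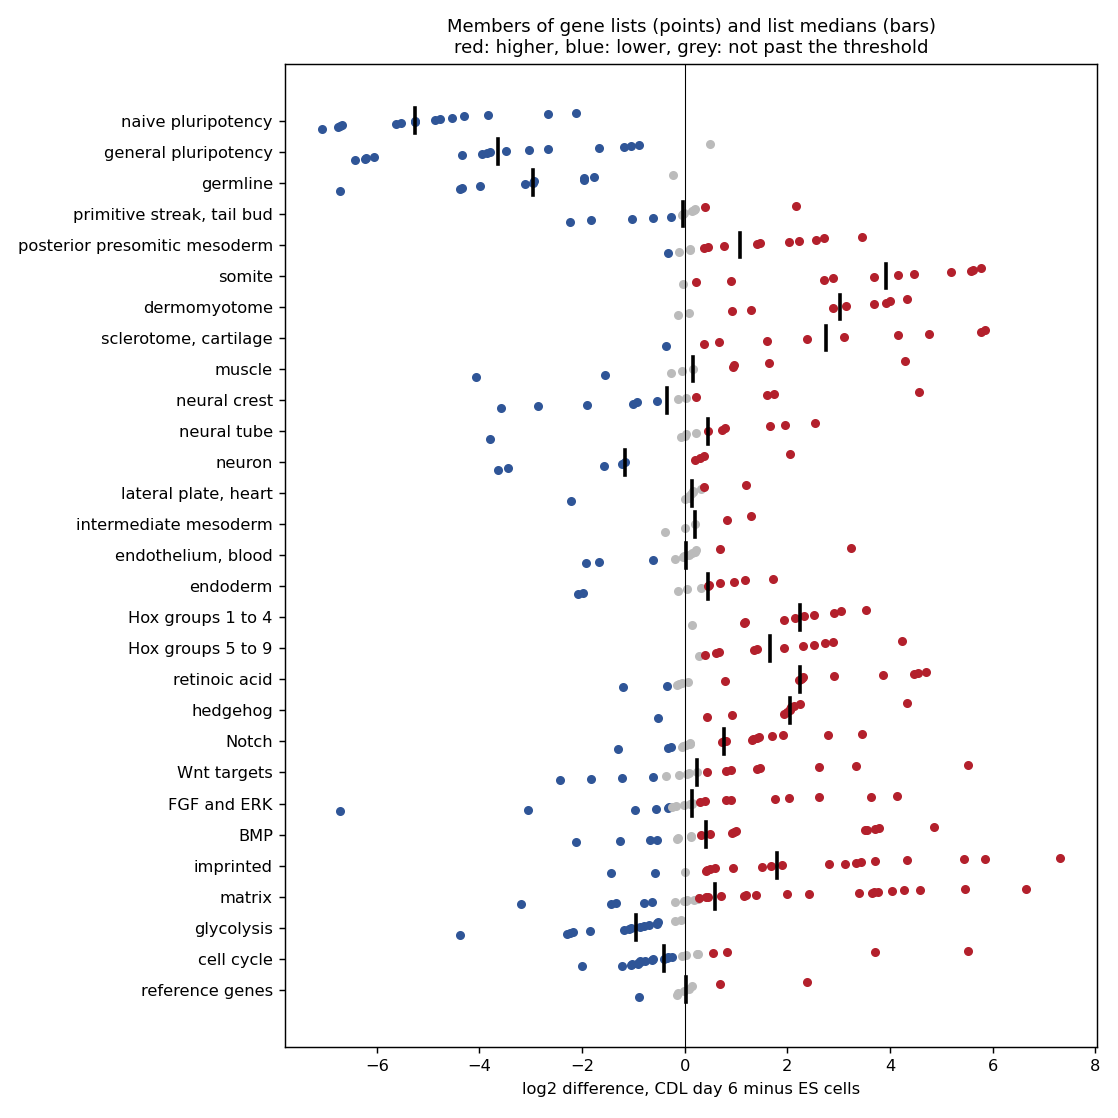
Log2 difference between CDL day 6 and ES cells (horizontal axis) for the tested members of 29 gene lists, 1 point per gene, with list medians as black bars. Red points were higher, blue points lower and grey points not past the threshold. Naive pluripotency genes lie wholly on the left, with a median of -5.26, and somite genes mostly on the right, with a median of 3.92.

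Pax3 or the culture could bring other cell types, and the lists of their markers showed changes both ways. Members too dim to test numbered 3 for neural crest, 6 for neural tube and 7 for neurons. They numbered 8 for lateral plate and heart, 6 for endothelium and blood and 3 for endoderm. Of 12 neural crest genes tested, 4 were higher and 6 lower, with a median of -0.34, and the summed signal over the list lay between 1105 and 1363 in CDL day 6 and between 1469 and 1559 in ES cells. Sox10, the defining gene of migrating crest, gave 48.2, 53.3 and 61.3 in CDL day 6 and 58.6, 50.3 and 50.9 in ES cells (adjusted p = 0.88). The arrays of both groups overlap. Foxd3, of early crest, was lower at 11.3, 12.1 and 11.5 against 34.9, 32.3 and 41.7. Tfap2a was lower too, at 22.4, 26.3 and 26.6 against 132, 115 and 139. The crest genes that were higher included Ets1 (difference 4.56 ± 0.15), Snai2 and Sox9, which mesoderm also expresses.

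Of 11 neural tube genes 6 were higher and 1, Sox2, lower, with a median of 0.46. The summed signal over the list was 1539 to 1968 in CDL day 6 and 3519 to 4439.7 in ES cells with Sox2, and 1285 to 1706 in CDL day 6 and 632 to 659 in ES cells without it. Sox1, a defining gene, gave 34.6, 40.7 and 37.2 against 36.1, 44.3 and 32.9. Pax6, another, gave 37.2, 44.5 and 32.6 against 30.1, 32.9 and 29.4. In each the groups overlap, and neither passed the threshold (adjusted p = 0.981 and 0.0783, the latter 0.0299 without CDL day 6 replicate 3). Ncam1 and Irx3 were the most raised, by 2.54 ± 0.14 and 1.96 ± 0.21. In the neuron list 4 of 9 were higher (2 when any of 5 of the arrays was left out) and 5 lower, with Tubb3 and Stmn2 the largest decreases at -3.63 and -3.45.

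Of lateral plate and heart genes 2 of 10 were higher and 1 lower, with a median of 0.13, and the summed signal over the list was 531 to 596 in CDL day 6 and 560.0 to 644 in ES cells. Foxf1 and Hand1 gave differences of 0.07 ± 0.09 and -0.01 ± 0.10 (adjusted p = 0.485 and 0.968; 0.0455 for Foxf1 with its probe sets averaged), and Tbx5 was too dim to test. Of endothelial and blood genes 2 of 12 were higher and 3 lower, with summed signals of 833 to 896 in CDL day 6 and 633 to 688 in ES cells. Kdr was at 63, 88.3 and 53.1 against 59.3, 52.9 and 56.2 (adjusted p = 0.225), Pecam1 was lower at 12.5, 11.7 and 13.9, and Cdh5 was dim on all arrays and not tested. Lmo2, a cofactor of blood and endothelial genes, was the exception at 418, 326 and 346 against 40.4, 17.7 and 25.5 (difference 3.25 ± 0.18, adjusted p = 5.94e-08). Its level at CDL day 4 was higher still, 1496, 2059 and 2089.7. Endoderm genes were higher in 6 of 11 and lower in 2, among the former Sox17 at 25.4, 26.6 and 26.9 against 13.1, 11 and 11 and Foxa2 at 44.9, 48.7 and 41.1 against 15.9, 12.2 and 11.1. The summed signal of the endoderm list was 644 to 721 in CDL day 6 and 885 to 973 in ES cells.

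Of the feeder fibroblast markers, Lum gave 12.3, 11.3 and 12.9 in ES cells, Dcn 21.3, 23.6 and 23.9, Col1a1 32.7, 32.4 and 30.6, Acta2 66.8, 92.4 and 81.4 and Timp1, the brightest, 602, 619 and 651. Over the 15 genes of that list the summed signal was 1057 to 1129 in ES cells and 9101 to 9748 in CDL day 6, where 9 of 14 tested were higher and 3 lower, led by Col3a1, Col1a2 and Acta2, which mesenchyme of many kinds expresses. The part of other cell types in the results was not tested.

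Hox genes, which give position along the body axis, were raised up to the middle groups. Members dim in ES cells, such as Hoxb1 and Hoxa5, could be tested only because they were brighter in other groups. Of Hox groups 1 to 4, 9 of 10 tested were higher than in ES cells and 0 lower, with a median of 2.24. Of groups 5 to 9 it was 11 of 12 and 0, with a median of 1.67. Among the early groups Hoxb1 gave 213, 278 and 159 against 6.84, 6.89 and 6.47, a difference of 3.53 ± 0.16, yet it had been at 2139, 2125 and 1859 at CDL day 4. Hoxb2, Hoxb3 and Hoxd3 differed from ES cells by 3.05, 2.90 and 2.52. Among the middle groups Hoxa5 was the largest, at 538, 586 and 504 against 16.7, 20.02 and 14.1 (difference 4.23 ± 0.11, adjusted p = 2.19e-10), with Hoxd8, Hoxb5 and Hoxb6 at 2.88, 2.73 and 2.52. Of groups 10 to 13, 9 of the 10 genes on the array were too dim to test, and the 1 tested, Hoxc13, was lower, at 22.2, 19.2 and 19.5 against 107, 112 and 123. The Hox cofactor Meis1 gave 379.7, 452 and 382 against 11, 7.93 and 9.44, and 6 of 7 cofactor genes were higher and 1 lower.

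In the retinoic acid pathway 10 of 16 tested genes were higher and 2 lower, with a median of 2.25 (1 lower without ES replicate 2). Retinoic acid is made from vitamin A by Aldh1a2, carried by the Crabp proteins, bound by Rar receptors and broken down by Cyp26 enzymes. The maker Aldh1a2 gave 1120.02, 1219 and 1022 in CDL day 6 against 30.1, 47.1 and 39.7 in ES cells. The carrier Crabp1 gave 1639, 1116 and 1419 against 159.97, 162 and 197, and Crabp2 575, 511 and 741 against 29, 29.4 and 29.8. In all 3 genes the groups were far apart. The nuclear receptor gene Nr2f1, which the acid raises in many tissues, gave 474, 583 and 599.7 against 11.7, 9.41 and 13.6 (difference 4.54 ± 0.12). Its relative Nr2f2 gave 987, 1207 and 815 against 26.7, 25.9 and 24.7 (difference 4.71 ± 0.14). For Nr2f2 the difference was 2.17 with its probe sets averaged. Rarb, a receptor and a target of the acid, gave 135, 120.2 and 108 against 13.4, 13.8 and 17 (difference 2.29 ± 0.10, adjusted p = 9.31e-09). The degrading enzyme Cyp26a1, also a target, gave 185, 208 and 208 against 32.1, 38.7 and 27.9 (difference 2.23 ± 0.11). Rarg, another of the receptors, was lower at 129.7, 172 and 156 against 377, 348 and 377.

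The promoters of Rarb and Cyp26a1 are shown because both genes were raised and both windows hold a retinoic acid response element, a direct repeat with a spacer of 5 bases that binds Rar with Rxr. This motif was added to the search with results of these data known. For Rarb the window is chr14:16575427-16575726 on the - strand of GRCm38.p6, with the match (capitals) 53 to 37 bases before the RefSeq start. For Cyp26a1 it is chr19:37697558-37697857 on the + strand, with the match 32 to 16 bases before the start and read on the other strand.
Rarb: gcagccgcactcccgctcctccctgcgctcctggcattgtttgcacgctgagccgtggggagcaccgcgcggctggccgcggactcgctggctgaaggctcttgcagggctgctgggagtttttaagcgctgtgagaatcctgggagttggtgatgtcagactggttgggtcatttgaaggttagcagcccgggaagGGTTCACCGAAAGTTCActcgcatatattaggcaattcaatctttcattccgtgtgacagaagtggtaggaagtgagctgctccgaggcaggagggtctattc
Cyp26a1: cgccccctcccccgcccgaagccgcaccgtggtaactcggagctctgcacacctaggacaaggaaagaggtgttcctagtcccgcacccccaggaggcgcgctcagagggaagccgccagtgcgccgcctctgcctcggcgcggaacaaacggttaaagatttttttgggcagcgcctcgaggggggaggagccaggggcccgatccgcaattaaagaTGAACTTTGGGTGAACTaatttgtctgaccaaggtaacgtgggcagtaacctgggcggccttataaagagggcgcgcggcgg
The element, on either strand, was in 31 of 27025 genes with RefSeq promoters of this length (0.115%) and in 5 of 9996 tested genes with a promoter in the table. Among those 5, Rarb and Cyp26a1 were higher, Blvrb and Syndig1 were lower and Tnfsf13b did not pass the threshold. In the retinoic acid list it was in 2 of the 14 genes with a promoter.

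Hedgehog genes were higher in 10 of 11 tested and lower in 1, with a median of 2.04. Shh itself, the ligand of notochord and floor plate, gave 136, 367 and 207 on the CDL day 6 arrays and 54.9, 38.7 and 35.6 on the ES arrays, a difference of 2.07 ± 0.28 (adjusted p = 6.14e-05). The arrays spread widely, with replicate 2 the highest, and all lay above those of ES cells, CDL day 4 (40.3, 46.4 and 50.9) and RDL day 6 (47, 64.7 and 64.9). The receptor and target Ptch1 gave 2031, 2976 and 2379 against 637, 618 and 623 and the target Gli1 160.5, 235 and 211 against 38.5, 29.2 and 40.4. Ptch1 differed by 1.94 ± 0.13, or by 1.07 with its probe sets averaged. The co-receptors Boc and Cdon were at 211 and 401 against 33.6 and 90.4, and Gas1 is given above. Gli2, a mediator of the signal, was lower by a small amount (-0.52 ± 0.17, adjusted p = 0.0202), which was lost without any of 4 of the 6 arrays (adjusted p up to 0.0815). Of the notochord list, to which Shh belongs, all 5 tested genes were higher than in ES cells. The others were the keratins Krt18 and Krt8, Foxa2 and Chrd, the last with its call lost without ES replicate 2 (adjusted p = 0.0888).

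Of 19 Notch genes tested, 11 were higher and 3 lower (1 lower without ES replicate 1, ES replicate 2 or CDL day 6 replicate 1), with a median of 0.76. The receptor Notch1 gave 727, 1231 and 599.8 against 292, 285 and 300.1, with replicate 2 the highest. The target Hey1 gave 255, 356 and 300.4 against 29, 34.9 and 33.9, a difference of 2.80 ± 0.13. Hes1, a further target, gave 695, 953 and 719 against 188, 190.4 and 219, a difference of 1.91 ± 0.13, and Heyl differed by 1.69 ± 0.16. No CDL day 6 array overlapped the ES arrays in these genes. Both Hey1 and Hes1 were also above CDL day 4 (adjusted p = 3.99e-04 and 0.00915), where Dll1 was higher.

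Wnt targets changed both ways. Both groups had CHIRON99021, which raises Wnt signalling, though the dose for ES cells is not given. Of 17 tested, 8 were higher and 4 lower, with a median of 0.24. The cyclin Ccnd2 had the largest increase, from 19.5, 24.7 and 29.8 to 1530.4, 1942 and 1622, followed by the feedback inhibitor Nkd1 (187, 279.9 and 180.3 against 9.53, 11.2 and 8.64) and the nuclear mediator Lef1 (245, 389.8 and 303 against 34.8, 34 and 51.2). With probe sets averaged, Nkd1 differed by 1.36 in place of 3.33, Lef1 by 1.72 in place of 2.62 and the ligand Wnt5a by 0.86 in place of 2.17. The Wnt inhibitor Notum fell from 220.04, 237 and 245 to 29, 40.2 and 31 and Cdx1 fell as given above. Axin2, a feedback target in most tissues, gave 191, 278 and 168 against 217, 223 and 232, groups that overlap (difference -0.10 ± 0.16, adjusted p = 0.596), though without CDL day 6 replicate 2 it was lower by a difference of -0.30 (adjusted p = 0.00963). At CDL day 4 it had been at 397, 769 and 534. The TCF/LEF core CTTTGA, on either strand, was in the promoters of 4 of the 9 list genes with one in the table (Dkk1, Lef1, Sp5 and Sp8), beside 14.2% of all tested genes.

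The FGF and ERK list showed changes both ways, with 9 of 21 higher and 6 lower and a median of 0.13. ES cells had the MEK inhibitor and CDL day 6 cells did not. Dusp6, a phosphatase that ERK induces, gave 2141, 2055 and 1714 against 93.2, 108 and 97.9. Dusp4, of the same kind, gave 335, 527 and 335 against 23.5, 17.9 and 18.7. The receptor Fgfr2 gave 252, 378 and 324 against 45.1, 37.4 and 39.1. Etv5, an FGF target, was lower at 145, 178 and 153 against 1446, 1412 and 1363, as was the ligand Fgf4. The medium, the line and the day cannot be told apart in these changes.

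Of BMP genes 10 of 18 were higher and 4 lower, with a median of 0.41. The CDL medium held the BMP receptor inhibitor. Id1, a direct target of BMP, gave 1989, 2371 and 2653 in CDL day 6 against 65, 60.2 and 80.8 in ES cells. Id2 gave 1679.5, 1558 and 1849 against 120.2, 115 and 119, and Id3 988, 1503 and 1168 against 74.8, 72.2 and 81.5. In all 3 the groups lay far apart, with differences of 4.85 ± 0.14, 3.71 ± 0.10 and 3.78 ± 0.15. Fst and Bmp5 were higher too, by 3.55 ± 0.12 and 3.51 ± 0.18 (2.14 for Bmp5 with its probe sets averaged), and the inhibitory Smad gene Smad7 was lower, at a difference of -2.12. In the Nodal and TGF-beta list the Nodal arm was lower, with differences of -6.22 for Tdgf1, -3.83 for Nodal, -3.18 for Lefty2 and -1.84 for Lefty1. Tgfb2 and the receptor Tgfbr1 were higher by 2.58 and 1.69, and the list had 7 of 13 higher and 5 lower.

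Imprinted genes were higher in 17 of 20 tested and lower in 2, with a median of 1.79. After Igf2, the largest were Nnat (1296, 1539.8 and 1256 against 11, 13.3 and 9.59), Mest (4286, 4913 and 4509 against 106, 89.5 and 84.1) and Ndn (1338, 1603 and 1483 against 56.1, 58.1 and 69). Cdkn1c, a cell cycle inhibitor, and Peg3 followed at differences of 3.70 ± 0.16 and 3.44 ± 0.10. Plagl1 was lower at 976 against 2648. Among insulin-like growth factor genes Igfbp4 gave 2269, 3165 and 2239 against 45.3, 35.7 and 52 and the receptor Igf1r 344, 422 and 309 against 78.7, 56.3 and 60.9, while Igfbp2 fell from 1979, 1827 and 2538 to 175, 193 and 181. The difference of Igfbp4 was 5.49 ± 0.16, or 3.39 with its probe sets averaged.

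Matrix genes were higher in 18 of 30 and lower in 5, with a median of 0.58. Fbn2, a microfibril protein, gave 1895, 2510.4 and 1826 against 38.3, 33.3 and 32.2, and Col1a2, Col26a1, Spon1 and Vcan differed by 4.58, 4.28, 4.04 and 3.76 (Spon1 by 2.34 with its probe sets averaged). The basement membrane gene Nid1 was lower (110.5 against 1102). The cadherins went opposite ways. Cdh1, of epithelia and ES cells, fell from 2749.9, 2471 and 2459.7 to 116, 159.9 and 106. Cdh2, of mesoderm and neural tissue, rose from 15.8, 21.1 and 23.1 to 734, 735 and 764. Their differences were -4.22 ± 0.14 and 4.54 ± 0.11. Vim, a mesenchymal filament gene, was bright in both groups and differed little (0.26 ± 0.09, adjusted p = 0.0354), a call lost without any of 5 of the 6 arrays (adjusted p up to 0.146).

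The chemokine Cxcl12 gave 1327, 2461 and 1529.7 in CDL day 6 against 19.7, 16.9 and 23.4 in ES cells (difference 5.73 ± 0.20), and its receptor Cxcr4 132, 110.2 and 115 against 23.3, 19.7 and 24. Of 26 Eph, ephrin and guidance genes, 18 were higher and 2 lower, with a median of 1.08. Epha7 and the semaphorin Sema3c were raised by 3.50 ± 0.10 (2.14 with probe sets averaged) and 3.37 ± 0.12, and Epha2 was lower, at a difference of -2.35. The apelin receptor Aplnr was high at 1119.9, 1602 and 984 while its ligand gene Apela fell from 1149, 1144 and 1221 to 107, 92.1 and 132.

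Glycolysis genes were lower in 14 of 16 tested and higher in 0, with a median of -0.96. The platelet phosphofructokinase Pfkp fell from 1178, 1074 and 1079 to 41.7, 43.1 and 39.4, the glucose transporter Slc2a3 from 9603, 9529.9 and 9861 to 1848, 2361 and 1739 and Ldhb from 3513, 3525 and 3644 to 793, 738 and 796. The hexokinase genes Hk1 and Hk2 differed by -2.25 and -1.84, and the other 9 enzymes called by -0.53 to -1.19. For Pfkp the difference was -4.38 ± 0.10, or -2.36 with its probe sets averaged. Of 18 respiratory chain genes 4 were higher and 7 lower, and the subunit Cox7a1 alone differed by more than 1 on the log2 scale (17.5, 23.4 and 17.6 against 664, 752 and 781). Cholesterol synthesis genes were higher in 10 of 13 and lower in 0, at a median of 0.45, led by Sc5d and Cyp51. Among one-carbon and threonine genes 7 of 12 were lower, with Bhmt, Bhmt2 and Gldc the largest at -6.42, -4.47 and -2.49.

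Cell cycle genes were lower in 15 of 23 and higher in 4, with a median of -0.40. The proliferation genes Mki67 and Pcna did not pass the threshold (differences 0.26 ± 0.11 and -0.05 ± 0.05, adjusted p = 0.061 and 0.394). Mki67 passed it, as higher, without CDL day 6 replicate 3 (0.34, adjusted p = 0.0293). The inhibitor Cdkn1a was lower at 409.96, 427 and 439 against 1723, 1671 and 1836. It is also a p53 target, and of 13 such genes 9 were lower and 1, Plk2, was higher. Cdkn1c and Ccnd2 were the largest increases of the list. Of genes for DNA methylation, Dnmt3l, Tet1, Tet2, Dnmt3b and Uhrf1 were lower and Dnmt3a (0.94 ± 0.13) and Mbd3 higher, the last lost without ES replicate 1 or 2 (adjusted p = 0.109 and 0.126).

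Immediate early genes, which cells switch on within minutes of a stimulus, were higher in 11 of 14 and lower in 1, with a median of 2.25. Fos gave 4904, 5081 and 4859 against 54.5, 45.1 and 47.5 and Egr1 2301, 3106 and 2279.5 against 14.5, 16.8 and 19.9. Fosb, Jun and Egr3 followed at 4.18, 3.62 and 3.62 (1.83 for Egr3 with its probe sets averaged). The other sorted groups were high as well: Egr1 gave 2274, 2259 and 2503 at CDL day 4 and 1519.9, 1508 and 2507 at RDL day 6. Since the ES cells were unsorted and had the MEK inhibitor, sorting, medium and differentiation cannot be told apart here. Of 14 heat shock and stress genes 1 was higher and 9 lower. The higher count was 0 without ES replicate 1, ES replicate 2 or CDL day 6 replicate 3, and 2 without CDL day 6 replicate 2. It was 3 with probe sets averaged and 0 with 13 or all 15 arrays in the fit. The fit on 13 arrays leaves out CDL day 4 replicate 1 and RDL day 6 replicate 1. Hspb1 had the largest decrease of the list, from 7994, 7905 and 8801 to 111, 329 and 145.

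Contractile and cytoskeletal genes were higher than in ES cells in 11 of 13 and lower in 0, with a median of 1.51, but lower than at CDL day 4 in 12 of 13. The lower count against ES cells was 1 without ES replicate 1 and 2 without CDL day 6 replicate 2. It was also 1 with 13 or all 15 arrays in the fit, with quantile normalization and with median centring. Acta2, smooth muscle actin, gave 2049, 1379 and 1801 against 66.8, 92.4 and 81.4 and Tagln 1289, 827 and 1058 against 51.2, 53.6 and 51.7. Serum response elements, a motif added with results known, were in promoters of 4 of this list's 12 genes with one (Acta1, Actc1, Cnn2 and Myl9). In the immediate early list it was 1 of 10 genes (Egr2), beside 1.62% of tested genes. Reference genes were higher in 2 of 8 tested and lower in 1. Among those not called, Actb, Rplp0, Tbp and Ywhaz differed by -0.02, 0.08, 0.13 and -0.12, none past the threshold. Some dimmer probe sets of Ywhaz were lower, by -0.31, -0.23 and -0.32 (limma, adjusted p = 0.00592, 0.0307 and 0.0173), and others did not pass it. Without CDL day 6 replicate 2, Tbp and Ywhaz differed by 0.33 and -0.14 and passed it (adjusted p = 0.00581 and 0.0156). B2m was higher by 2.38 ± 0.16.

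Hprt, an enzyme of purine salvage, gave 897, 851 and 904 in CDL day 6 and 46.8, 26.5 and 32.1 in ES cells, a difference of 4.25 ± 0.15 (adjusted p = 1.21e-09). Over the whole series it lay between 18.8 and 46.8 on the 9 arrays of line E14, day 4 included, and between 851 and 1008 on the 6 arrays of line CK35. As each line was measured at its own days, line and day cannot be told apart for this gene or any other.

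A comparison with CDL day 4 asks which differences from ES cells were not the same in both groups, which differ in line, sort and day. Against CDL day 4, 1811 genes were higher and 2376 lower in CDL day 6. Without CDL day 4 replicate 1 it was 1724 and 2134, without CDL day 6 replicate 3 1214 and 1521, and without CDL day 6 replicate 2 2430 and 3180. The 10 largest increases were Igfbp5, Uncx, Selenop, Foxd1, Cxcl12, Hprt, Nr2f1, Col3a1, Itih5 and Meox2, between 4.28 and 7.27. Foxd1 gave 29, 31.5 and 27.1 at CDL day 4 and 1074, 1603 and 1274 at day 6, and Nr2f1 10.6, 12.3 and 11.3 and 474, 583 and 599.7. The 10 largest decreases were Phlda2, Lgals3, Mixl1, Gbp2, Fgf8, Tbx6, Cited1, Acta1, Mid1 and Car3, between -5.25 and -4.29. Phlda2, an imprinted growth inhibitor of the placenta, gave 1807, 2542 and 2086 at CDL day 4, 49.7, 49.5 and 33.4 at day 6 and 61.1, 73.2 and 80.6 in ES cells, so its level at day 4 stood apart from both. The lectin gene Lgals3 and the ubiquitin ligase gene Mid1 were lower in CDL day 6 than in either of the E14 groups.

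The comparison with RDL day 6 is between cells of the same line, day and sort that had CHIRON99021 or Rspo3. It called 182 genes higher (1.47%) and 262 lower (2.11%) in CDL day 6. Leaving out 1 array moved these counts to between 83 and 301 and between 119 and 471, the highest without RDL day 6 replicate 1. The 10 largest increases were Nupr1, Dll1, Aldh1a2, Lmo2, Klf4, Slc7a3, Dleu7, Ptgds, Cth and Zic5. Nupr1, a stress response gene, gave 839, 446 and 722 in CDL day 6, 72.7, 44.9 and 39.6 in RDL day 6 and 592, 658 and 589 in ES cells, so that CDL day 6 did not differ from ES cells past the threshold (adjusted p = 0.743, or 0.00315 without replicate 2). Aldh1a2 was at 214, 338 and 299.8 in RDL day 6, Dll1 at 44.1, 105 and 85 and Shh at 47, 64.7 and 64.9, all below CDL day 6, with differences of 1.95 ± 0.18, 2.14 ± 0.30 and 1.71 ± 0.30 (adjusted p = 6.72e-04, 0.00523 and 0.0161, the last 0.0752 without CDL day 6 replicate 3). Slc7a3 and Cth, genes of amino acid transport and cysteine synthesis, were intermediate in CDL day 6, below ES cells and above RDL day 6.

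The 10 largest decreases against RDL day 6 were Asb4, Fli1, Otx2, Tgfbi, Epha3, Lum, Mc2r, Spink1, Dlk1 and Trh. Asb4 gave 115, 94.2 and 141 in CDL day 6, 1371, 976 and 1121 in RDL day 6 and 14.6, 16 and 13.5 in ES cells. Otx2, a homeobox gene of the anterior head, was dim in CDL day 6 at 15.9, 17.5 and 17.6, while it was at 184, 176 and 216 in RDL day 6 and 124, 129.6 and 105 in ES cells. Nr2f1, Cyp26a1 and Sox9 were also lower than in RDL day 6 (differences -1.43 ± 0.23, -1.72 ± 0.17 and -1.27 ± 0.27, adjusted p = 0.0114, 8.81e-04 and 0.0383), though above ES cells. The call was lost for Sox9 without any of 5 arrays (adjusted p up to 0.157) and for Nr2f1 without any of 3 (adjusted p up to 0.058). Pax3 was not past the threshold between the media (0.76 ± 0.18, adjusted p = 0.0662), though it was with all 15 arrays in the fit (adjusted p = 0.00322). Meox1 (0.15 ± 0.17, adjusted p = 0.801) and Foxc2 (0.67 ± 0.30, adjusted p = 0.365) did not pass it in the reported fit, which does not show that they were alike.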

How the data were processed

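Gene expression was measured on Affymetrix arrays after 2-cycle labelling, per the labels' protocols. The deposited values are linear MAS5 signal intensity per probe set, per the submitters' processing notes, for 45101 probe sets on 15 arrays; the sources used here do not give the scaling target. Genes were named through the platform annotation: of 45037 probe sets that are no controls, 34945 had 1 symbol, 932 several and 9160 none. Of a gene's probe sets with 1 symbol, that with the highest mean signal was used. Genes above the array median on at least 3 arrays (12409 of 18193) were fitted on log2(signal + 12.6), the constant being the median 25th percentile, with limma 3.58.1 in R 4.3.3 (eBayes with intensity trend) on the 6 arrays of each comparison, and p-values were adjusted over all genes (Benjamini-Hochberg). Drawings were made with matplotlib 3.10.9. Tested on simulated data for CDL day 6 against ES cells, with 12409 genes, 89 of 100 changes of 1 and 100 of 100 changes of 2 on the log2 scale were recovered, with 6 false calls. The simulation held far fewer changed genes than were called in the data. It gave both groups the same normal spread per gene, while the median SD was 0.147 in CDL day 6 and 0.080 in ES cells. Its rates thus need not hold for the data. The number of arrays limits the precision.

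Named genes were the 15 largest differences each way from ES cells and 10 each way in the other comparisons, among genes past the threshold whose arrays did not overlap, passing over clone symbols. Added to these were Pax3, Msgn1, up to 6 members of each list by size, and members that show a cell type. Klf2, Lin28a, Six4, Hes7, Lfng, Mesp2, Axin2, Rarb, Rarg, Ptch1, Cdon, Gli2, Vim, Nid1, Plagl1, Mki67, Pcna, Mbd3, the reference genes and the genes named for a motif were added after their values were seen. The groups compared, the members and the lists were chosen with earlier results of these data known. Alternatives covered the constant, filter, probe sets, normalization, arrays in the fit, prior, replicate block and each array left out. Leaving out 1 array leaves 2 in its group. Promoter sequences are RefSeq's, on GRCm38.p6.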

Additional observations from a re-analysis of the deposited data

Results flagged for a closer look

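Whether the change from ES cells was the same in the sorted groups was tested by comparing those groups directly, which is a test of the difference between their changes because they share the ES arrays. Against CDL day 4, 1811 genes were higher and 2376 lower in CDL day 6. These groups differ in line, sort and day, which cannot be told apart. Against RDL day 6, which shares line, sort and day, 182 genes were higher and 262 lower.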

How the results depend on the processing

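All alternatives for CDL day 6 against ES cells kept the counts of calls within 1.5 times of 3537 and 4228, with 3090 to 3912 higher and 3766 to 4760 lower when 1 array was left out. Against CDL day 4 that range was 1214 to 2430 higher and 1521 to 3180 lower, the lowest of the latter without CDL day 6 replicate 3. Against RDL day 6 the counts were the least steady. They were 456 and 490 with all 15 arrays in the fit, 301 and 471 without RDL day 6 replicate 1, 104 and 147 without its replicate 2, and 83 and 129 without its replicate 3. Without CDL day 6 replicate 1, 2 or 3 they were 86 and 119, 151 and 194, or 85 and 126. The groups share replicate numbers, but same-numbered arrays did not deviate together throughout: residual correlations of replicates 1, 2 and 3 were 0.07, -0.24 and -0.27 with ES cells, 0.07, 0.14 and 0.14 with CDL day 4, and 0.61, 0.59 and -0.24 with RDL day 6. With the replicate block the calls were 3376 and 4027 against ES cells, 2011 and 2604 against CDL day 4, and 513 and 564 against RDL day 6. Pax3 and Foxc2, which did not pass the threshold against RDL day 6, passed it with the block (adjusted p = 0.00149 and 0.0266), as did Foxc1 against CDL day 4 (adjusted p = 0.0442). Of 4578 values of named genes under 23 settings, 4492 kept their side of the threshold, 68 lost the call and 18 gained it. None with a call in either fit reversed direction (0 values). Values without a call in both fits count as kept even where their sign changed, as for Hes7 (-0.05 to 0.22 against ES cells). Of 1836 list counts, 1749 stayed within 1.5 times and 87 moved, many of them counts of 1 to 3 or under the stricter filter, which tests fewer genes. The cause of these changes was not tested. Genes near the array median are limited by signal over background.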

Other observations

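Some genes separated the arrays by ES line, across all groups. By a rule chosen after the values were seen (a range of at most 1 on the log2 scale over the 9 E14 arrays, and a gap of at least 2 to all 6 CK35 arrays), 17 genes were higher and 3 lower on the CK35 arrays. Among the former, Fap, a protease of mesenchymal cells, lay between 6.82 and 12.1 on the E14 arrays and between 289.9 and 506 on the CK35 arrays, and Foxp2, a forkhead gene, between 30.1 and 49.1 and between 426 and 683. Among the latter, Mpzl2, an adhesion gene, lay between 410.1 and 566 on the E14 arrays and between 28.3 and 39.8 on the CK35 arrays. Lefty2, Rhpn2, Hprt, Igfbp5, Meox2, Spon1, Itih5, Bmp5 and Pax1 followed the same rule. All CK35 arrays are of day 6 and no E14 array is, so line and day cannot be told apart for these genes.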
